A study of Mus musculus with 30 samples.

Results

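Pleiotrophin and midkine are the only members of a small family of secreted growth factors, encoded by Ptn and Mdk, and 6 genes of their cell-surface receptors complete the set of 8 genes described here. The set was named by gene symbol, and all 8 symbols were found once each among the 38561 genes of the count table. Ptprz1 encodes a receptor-type tyrosine phosphatase, Sdc1 to Sdc4 encode the 4 syndecans and Lrp1 encodes an endocytic receptor. The set was chosen by measured values, mainly the low Ptn counts of obese young mice against lean young mice, so values of that comparison are given as a description without a test. All 8 genes had enough reads to be among the 14438 genes tested.

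Counts came from cultured adipose-derived stem cells of inguinal fat, the subcutaneous depot of the groin, with 1 library per mouse from 30 male C57BL6/J mice. The groups were 6 aged obese, 8 aged lean, 8 young obese and 8 young lean mice. Aged mice were killed at 52 weeks and young mice at 20 weeks, and obese mice ate food with 60% of its energy from lard fat from weaning while lean mice ate control chow. No allele or other agent differed between the groups, and all cells were sorted as Sca-1+, CD34+, CD31-, CD45- and Ter119- and grown to passage 2. In obese mice the effect of age cannot be told apart from the longer time on the diet, and of 12 aged obese mice bought 8 were alive at the end. The libraries describe cells after sorting and expansion in culture, not cells within the fat pad.

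Both growth factors bind the sulfated sugar chains of proteoglycans. Binding of pleiotrophin to the chondroitin sulfate chains and core of PTPRZ1 is known to switch off the phosphatase, which leaves its substrates, among them β-catenin and the kinase Fyn, more phosphorylated. Syndecans carry heparan sulfate chains that hold the ligands at the cell surface, and LRP1 binds midkine and takes it into the cell. In preadipocytes of mice, pleiotrophin is known as a factor that restrains the formation of fat cells, and in the nervous system both ligands drive the outgrowth of neurites.

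The promoters of Ptn and Sdc3 are shown because these members had the most negative and the most positive log2 difference between obese and lean young mice. The sequences come from RefSeq on build GRCm38.p6, at chr6:36810130-36810429 on the minus strand for Ptn and at chr4:130792287-130792586 on the plus strand for Sdc3. Each window runs from 250 bases before to 50 bases after the annotated start of the gene and is printed 5′ to 3′, with CG dinucleotides, the sites of DNA methylation, in capitals.
Ptn: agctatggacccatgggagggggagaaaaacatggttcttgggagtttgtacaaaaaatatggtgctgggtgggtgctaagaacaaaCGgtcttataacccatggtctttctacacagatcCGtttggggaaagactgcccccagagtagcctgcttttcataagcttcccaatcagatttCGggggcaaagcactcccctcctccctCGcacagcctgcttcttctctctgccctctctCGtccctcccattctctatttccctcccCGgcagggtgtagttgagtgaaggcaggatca
Sdc3: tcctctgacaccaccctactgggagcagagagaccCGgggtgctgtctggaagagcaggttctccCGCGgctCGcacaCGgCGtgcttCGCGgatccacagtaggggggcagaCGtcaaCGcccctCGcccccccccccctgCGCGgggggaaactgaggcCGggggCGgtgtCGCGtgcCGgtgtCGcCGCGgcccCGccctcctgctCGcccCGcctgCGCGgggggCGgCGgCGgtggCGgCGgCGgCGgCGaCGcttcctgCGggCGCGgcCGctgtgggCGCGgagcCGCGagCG
The window of Ptn held 6 CG dinucleotides and 52.0% G and C, against medians of 7 and 52.7% over 32851 promoters of the same length. The window of Sdc3 held 44 CG and 77.7% G and C, more CG than 97.8% of promoters. Windows were given for 6 of the 8 members. CG numbered 29 in Ptprz1, 22 in Sdc4, 16 in Lrp1 and 14 in Sdc1. GGGCGG, the GC box, occurred on either strand in these 4 promoters and in that of Sdc3, but not in that of Ptn, and in 35.7% of all promoters. TATAAA (13.6% of promoters), the E-box CACGTG (7.15%) and the AP-1 site TGACTCA (5.2%), each searched on both strands, occurred in none of the 6 windows. These matches describe the letters only, and methylation was not measured.

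Libraries held 30597765 to 47970233 counts in genes, and levels are given as CPM, counts scaled to a fixed library total after correction for composition. Ly6a, which encodes Sca-1, lay between 176.5 and 1254.0 CPM, and Cd34 between 0.193 and 38.0 CPM, so RNA of a sorted marker was near absent in some cultures. Of the genes sorted against, Pecam1, which encodes CD31, reached at most 0.278 CPM and Ptprc, which encodes CD45, was at 0 in 26 of 30 libraries. Lep, which encodes the hormone of mature fat cells, was at 0 in all 30 libraries. Other adipocyte markers, Adipoq, Plin1 and Lipe, had reads in all 30 libraries, with highest levels of 16.4, 7.94 and 6.56 CPM. These highest levels were all in aged lean 12, with summed adipocyte markers of 36.2 CPM. Of the progenitor markers, Pdgfra lay between 107.6 and 496.6 CPM and Dpp4 between 0.0642 and 7.63 CPM. A few libraries stood apart from their groups. Young obese 1 and 2 had 26.1 and 27.9 CPM of Cd34, whereas the 6 remaining ones of that group had 0.912 to 2.79 CPM. Aged obese 10 and 12 had the lowest Cd34 and the lowest Ly6a (176.5 and 361.8 CPM), and summed proliferation markers of 828.6 and 610.5 CPM, whereas the 4 remaining ones had 69.6 to 244.6 CPM. Young obese 22 had summed progenitor markers of 13176.3 CPM, against 30435.6 to 46148.0 CPM in the rest of its group. These sums came mostly from Col1a1, at 12155.0 to 44931.0 CPM over the 30 libraries. Thy1, the next by median, reached at most 1076.7 CPM. Summed proliferation markers of young obese 22 were 790.1 CPM, against 125.9 to 570.0 CPM in the rest of its group. Its Ptn, Mdk, Ptprz1, Sdc3 and Lrp1 were the lowest of the group. Young obese 1 and 2 lay close together (chi-square statistic per gene of 8.75), and so did young obese 18, 19, 20, 21 and 23 (6.79 to 23.7), where pairs across these sets reached 218.9. Pairs with young obese 22 stood at 135.4 to 398.3. The closest pairs of aged lean and young lean libraries stood at 18.9 and 22.7. Such libraries may not count as independent, and values without young obese 1 and 2 or without aged obese 10 and 12 are given beside the results that they move. Fewer expressing cells and less RNA per cell cannot be told apart in such libraries.

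Levels of the members spanned more than 2 orders of magnitude. Per kb of exon, the measure on which genes of unequal length can be compared, Lrp1 was highest with a median of 137.3 CPM per kb over the 30 libraries (range 87.9 to 211.4). Sdc1 followed with 118.9 (73.9 to 366.7), Sdc4 with 67.2 (28.4 to 143.9), Sdc2 with 38.2 (29.5 to 60.0) and Sdc3 with 35.4 CPM per kb (19.2 to 73.4). The ligands and the phosphatase were the lowest, Mdk with 21.7 (6.87 to 37.7), Ptn with 2.31 (0.443 to 14.1) and Ptprz1 with 0.766 CPM per kb (0.214 to 1.35). Within libraries the order of neighbours was firm for Sdc1 over Sdc4 (28 of 30 libraries), Sdc4 over Sdc2 (28), Sdc3 over Mdk (29) and Mdk over Ptn (28). It was less firm for Ptn over Ptprz1 (23 of 30), Sdc2 over Sdc3 (19) and Lrp1 over Sdc1 (18). Ptn stood above Ptprz1 in 5 of 6 aged obese and 8 of 8 aged lean libraries, and in 2 of 8 young obese and 8 of 8 young lean libraries. Sdc2 stood above Sdc3 in 3 of 6 aged obese and 8 of 8 aged lean libraries, and in 1 of 8 young obese and 7 of 8 young lean libraries.

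The median balance of the ligands, given here as a description, differed between groups. Per kb, Mdk exceeded Ptn by a median of 15.1-fold in aged obese (3.93 to 37.3) and 2.37-fold in aged lean libraries (0.76 to 21.3), and by 32.9-fold in young obese (20.6 to 46.5) and 4.23-fold in young lean libraries (0.768 to 17.5). The lowest ratio of a young obese library, 20.6, lay above the highest of a young lean library, 17.5. The low Ptn of young obese cells chose the set, so this gap is not a separate result. In aged mice the ranges of the ratio overlapped widely. At both ages the lean groups each held 1 library in which Ptn was the higher ligand.

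Ptn (ENSMUSG00000029838, chromosome 6) was the lowest in young obese cells. In CPM its lowest, median and highest levels were 1.57, 2.35 and 3.51 in the 8 young obese libraries, against 6.07, 18.1 and 45.5 in the 8 young lean libraries. The ranges did not overlap, and every young obese library lay below every young lean one. Of all tested genes 0.741% were lower without overlap in this comparison. The smallest of these levels still rested on 61 reads, in young obese 22. The log2 difference, obese over lean, was -2.98 ± 0.57 (SE), and with single libraries left out it lay between -3.11 and -2.65. It was -3.10 ± 0.67 without young obese 1 and 2, and -3.01 ± 0.94 with young obese libraries that lay close together summed. Beside it, summed adipocyte markers ranged from 1.83 to 4.82 CPM in young obese and 2.26 to 27.7 CPM in young lean libraries. The 4 tested adipocyte markers all had negative log2 differences, with a median of -2.58. Their part in the low Ptn was not tested.

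In aged mice Ptn had a lowest, median and highest level of 1.52, 6.43 and 30.3 CPM in the 6 aged obese libraries, against 2.91, 19.1 and 48.4 CPM in the 8 aged lean libraries. The groups overlapped widely, and 4 of 6 aged obese libraries lay below the aged lean median. The log2 difference was -1.02 ± 0.58 (edgeR quasi-likelihood test, adjusted p = 0.487, where a gene passed below 0.05). It ranged from -1.58 to -0.78 with single libraries left out and was -1.60 without aged obese 10 and 12. Whether the difference between obese and lean cells was itself unequal at the 2 ages was not tested.

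Among obese mice Ptn was higher in aged cells. The aged obese libraries 10, 12, 14, 15, 16 and 17 held 8.41, 30.3, 3.92, 21.3, 1.52 and 4.44 CPM, and the 8 young obese libraries 1.57 to 3.51 CPM. Of the aged obese libraries 5 of 6 lay above every young obese library, and aged obese 16 lay below all of them. The log2 difference, aged over young, was 2.28 ± 0.59 (edgeR, adjusted p = 0.0336), where 1.87% of tested genes were called higher. The young obese libraries also served the comparison that chose the set, so this p is no independent support. Without aged obese 12 or without aged obese 15, the libraries with the highest Ptn, it was 1.72 (adjusted p = 0.0982) and 2.02 (0.117), and the call also ended without any of young obese 2, 18, 19, 20, 21, 22 or 23 (0.0505 to 0.0615). Without aged obese 10 and 12 together it was 1.70 ± 0.62 (adjusted p = 0.054), and without young obese 1 and 2 it was 2.40 ± 0.67 (0.0404). With young obese libraries that lay close together summed, it was 2.33 ± 0.92 (adjusted p = 0.541), and with voom and library weights 1.12 ± 0.75 (0.29). Summed adipocyte markers were highest in aged obese 15 (17.8 CPM, against 1.83 to 4.82 CPM in young obese libraries). In aged obese 10, 12, 14, 16 and 17 they were 2.03, 2.85, 4.53, 5.35 and 3.09 CPM. Aged obese 12, with the highest Ptn of its group, lay within the young obese range. Aged obese 15, with the next highest Ptn, lay above it. Of 4 tested adipocyte markers 3 had positive log2 differences, with a median of 1.84 over the 4, and their part in the result was not tested.

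Between lean mice of the 2 ages no difference of Ptn passed the test. The 8 aged lean libraries had 2.91 to 48.4 CPM and the 8 young lean libraries 6.07 to 45.5 CPM, with a log2 difference of 0.31 ± 0.52 (edgeR, adjusted p = 0.952). The young lean libraries also served the comparison that chose the set. Values of p for the members for age in lean mice are therefore not independent of that choice. Within the aged lean group Ptn lay far apart, at 28.7 to 48.4 CPM in libraries 11, 12, 13 and 15 and at 2.91 to 9.61 CPM in libraries 16, 17, 19 and 20.

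**Figure D1:**
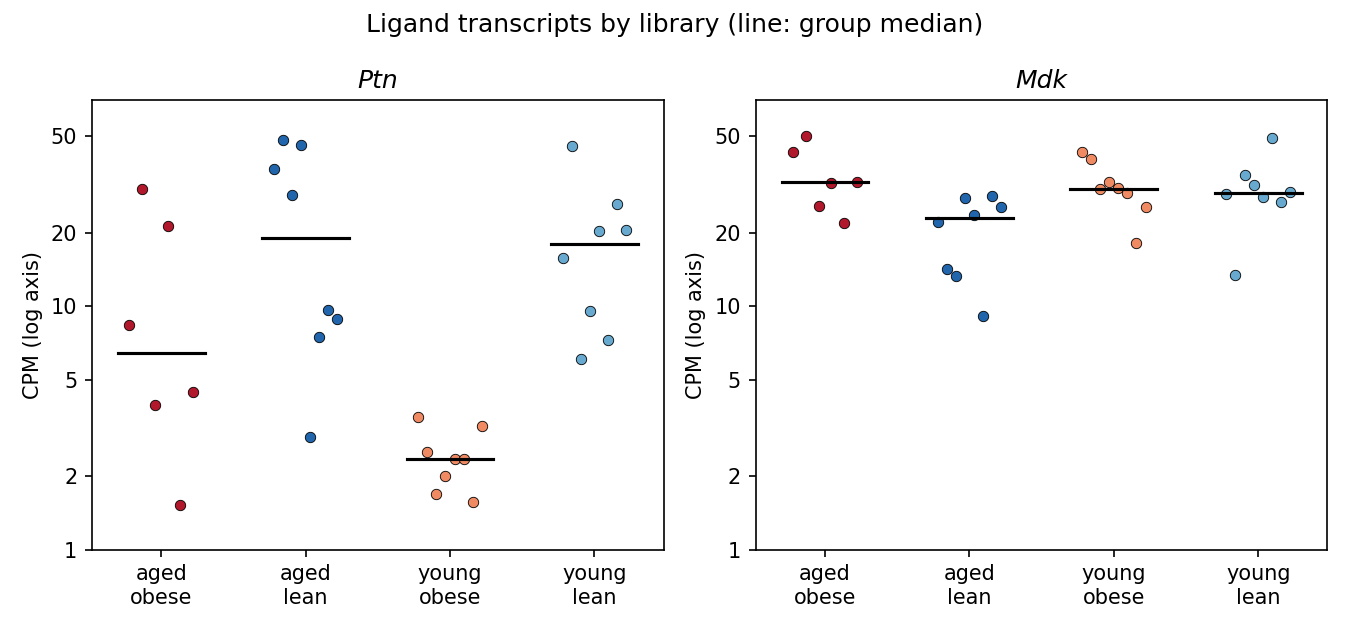
CPM of Ptn and Mdk on a log axis, 1 point per library, in aged obese, aged lean, young obese and young lean groups, with a line at each group's median. Ptn lies between 1.57 and 3.51 CPM in young obese libraries, below all young lean libraries, and spreads widely in the other groups, whereas Mdk lies between 9.1 and 50 CPM throughout.

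Mdk (ENSMUSG00000027239, chromosome 2), the other ligand, did not follow Ptn. In young mice its lowest, median and highest levels were 18.2, 30.4 and 43.2 CPM in obese libraries, against 13.5, 29.2 and 49.1 CPM in lean libraries, which overlapped throughout (log2 difference 0.04 ± 0.23). In aged mice they were 21.9, 32.3 and 50 CPM in obese libraries, against 9.1, 22.9 and 28.5 CPM in lean libraries. There 5 of 6 aged obese libraries exceeded the aged lean median, and the log2 difference of 0.73 ± 0.25 did not pass over all genes (edgeR, unadjusted p = 0.00567, adjusted p = 0.194). The highest values came from aged obese 10 and 12 (42.9 and 50 CPM), and without them the difference was 0.45. Mdk was the member nearest to the threshold also for age in lean mice, with all 8 aged lean libraries below the young lean median and a log2 difference of -0.56 ± 0.23 (unadjusted p = 0.0214, adjusted p = 0.85). Between aged and young obese cells it was 0.13 ± 0.25 (adjusted p = 0.812), 0.30 without young obese 1 and 2 and -0.14 without aged obese 10 and 12. Without young obese 1 and 2 the difference for obesity in young mice was -0.13.

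Ptprz1 (ENSMUSG00000068748, chromosome 6), the phosphatase that both ligands bind, had the lowest median per kb over the 30 libraries. In young obese libraries Ptn was scarcer still, with a median of 0.685 CPM per kb, against 0.886 CPM per kb for Ptprz1. Its lowest, median and highest levels were 7.26, 11.2 and 19.2 CPM in aged obese and 5.5, 8.37 and 13 CPM in aged lean libraries. In young mice they were 6.4, 12.6 and 18.1 CPM in obese and 3.04, 9.02 and 14 CPM in lean libraries. In each pair the obese median was higher, and the ranges overlapped. The log2 difference was 0.56 ± 0.30 in aged mice (edgeR, adjusted p = 0.456) and 0.48 ± 0.28 in young mice. The highest values came from aged obese 10 and 12 (19.2 and 18.7 CPM), and without them the difference in aged mice was 0.18 ± 0.33. For age it was 0.02 ± 0.30 in obese mice (adjusted p = 0.98), -0.35 without aged obese 10 and 12 and 0.15 without young obese 1 and 2, and -0.07 ± 0.28 in lean mice (0.986). The summed glial markers, of cells in which PTPRZ1 is well known, were at most 2.08 CPM in any library, with Sox10 at 0 in 29 and Foxd3 at 0 in 30 libraries.

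Lrp1 (ENSMUSG00000040249, chromosome 10), a large receptor that clears proteases, lipoproteins and growth factors and in fat cells takes up lipids, was abundant in all groups. Its lowest, median and highest levels were 1557.1, 2781.1 and 3548.7 CPM in aged obese and 1887.5, 2431.7 and 3746.2 CPM in aged lean libraries. In young mice they were 1672.1, 2581.4 and 3741.1 CPM in obese and 2065.4, 2268.5 and 2598.3 CPM in lean libraries. The young lean libraries lay within the range of each other group, with the smallest spread of the 4 groups (SD of log2 CPM 0.117). The log2 differences were 0.04 ± 0.17 for obesity in aged mice (adjusted p = 0.963), 0.19 ± 0.15 for obesity in young mice, 0.03 ± 0.17 for age in obese mice (0.95) and 0.18 ± 0.15 for age in lean mice (0.877). Without aged obese 10 and 12, which held 1557.1 and 2185.4 CPM, they were 0.24 for obesity in aged mice and 0.24 for age in obese mice. Without young obese 1 and 2 they were 0.04 for obesity in young mice and 0.18 for age in obese mice.

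**Figure D2:**
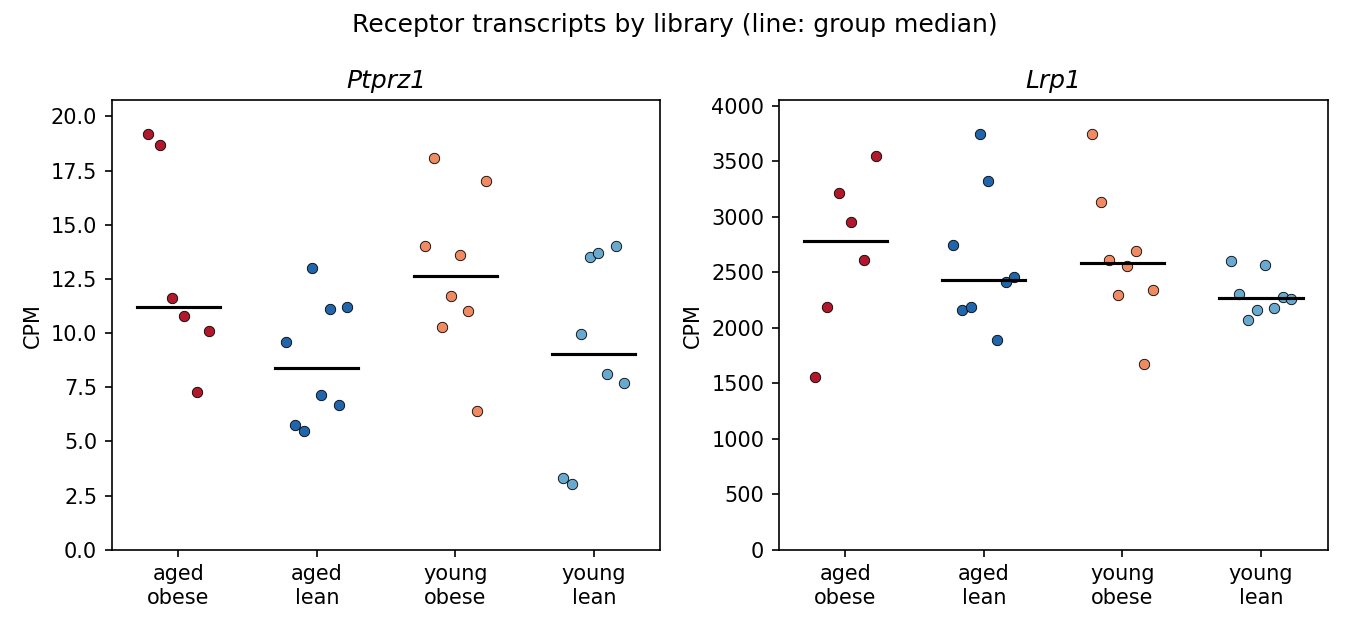
CPM of Ptprz1 and Lrp1, 1 point per library, in aged obese, aged lean, young obese and young lean groups, with a line at each group's median. Ptprz1 stays below 20 CPM with overlapping groups, and Lrp1 lies between 1557.1 and 3746.2 CPM with the narrowest range in young lean libraries.

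Of the syndecans, Sdc3 (ENSMUSG00000025743, chromosome 4), known as a pleiotrophin receptor in neurons of rats, had, like Sdc4, the higher median in obese cells at both ages. In young mice its lowest, median and highest levels were 149.3, 233.8 and 439.6 CPM in obese libraries, against 115.0, 170.2 and 231.9 CPM in lean libraries. The groups overlapped, and 7 of 8 young obese libraries exceeded the young lean median. The log2 difference was 0.60 ± 0.17, and it was 0.31 ± 0.14 without young obese 1 and 2, which held 439.6 and 393.5 CPM. In aged mice the levels were 203.0, 253.3 and 330.2 CPM in obese libraries, against 166.5, 197.4 and 276.0 CPM in lean libraries. All 6 aged obese libraries exceeded the aged lean median, and the log2 difference of 0.34 ± 0.18 did not pass (edgeR, adjusted p = 0.453). For age it was -0.06 ± 0.18 in obese mice (adjusted p = 0.888), or 0.23 without young obese 1 and 2 and -0.11 without aged obese 10 and 12, and 0.20 ± 0.17 in lean mice (0.877). Antisense genes Gm12970 and Gm26716 overlap exons of Sdc3 by 48 and 415 bases, and held 4 and 0 counts in all libraries together. Whether the counting used strand was not given in the sources used here.

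Sdc1 (ENSMUSG00000020592, chromosome 12), the syndecan of epithelia and plasma cells that is also made by stromal cells in culture, varied widely within 3 of the 4 groups. Its lowest, median and highest levels were 423.2, 452.8 and 1396.6 CPM in aged obese and 281.5, 513.1 and 1124.2 CPM in aged lean libraries. In young mice they were 411.2, 478.1 and 535.5 CPM in obese and 303.6, 387.4 and 929.7 CPM in lean libraries. The young obese group was the narrowest, with an SD of log2 CPM of 0.142, against 0.583 to 0.755 in the other groups. All 8 young obese libraries lay above the young lean median, yet the log2 difference of the fit was -0.03 ± 0.29, since young lean 1 and 7 held 929.7 and 717.4 CPM. Obesity in aged mice gave 0.27 ± 0.31 (edgeR, adjusted p = 0.787) and 0.51 without aged obese 10 and 12, age in obese mice 0.55 ± 0.31 (0.345) and age in lean mice 0.24 ± 0.29 (0.915). For age in obese mice the log2 difference was 0.79 ± 0.34 without aged obese 10 and 12 (edgeR, adjusted p = 0.0968). Without aged obese 17 it was 0.22 ± 0.30 (0.791).

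Sdc2 (ENSMUSG00000022261, chromosome 15), the syndecan typical of mesenchymal cells, had the smallest SD about the group means of the 8 members, taken over all groups. Its lowest, median and highest levels were 119.3, 167.6 and 211.6 CPM in aged obese and 129.7, 132.8 and 177.2 CPM in aged lean libraries. In young mice they were 104.1, 119.9 and 189.9 CPM in obese and 121.8, 136.1 and 162.3 CPM in lean libraries. Of the aged obese libraries 5 of 6 exceeded the young obese median, with a log2 difference of 0.25 ± 0.13 (edgeR, adjusted p = 0.305). Here the libraries that stood apart mattered, since young obese 1 and 2 (181.7 and 189.9 CPM) were the highest of their group and aged obese 10 and 12 (119.3 and 122.1 CPM) the lowest of theirs. Without the young obese pair Sdc2 passed as higher in aged obese cells (0.44 ± 0.11, adjusted p = 0.0268), likewise without the aged obese pair (0.42 ± 0.13, 0.0286) and with voom and library weights, which gave all 4 a low weight (0.54 ± 0.11, 0.00202). It did not pass with young obese libraries that lay close together summed (edgeR, 0.20 ± 0.16, adjusted p = 0.741). Nor did it pass by DESeq2 (0.25 ± 0.14, adjusted p = 0.287). The log2 difference for obesity was 0.20 ± 0.13 in aged mice (adjusted p = 0.563), or 0.37 without aged obese 10 and 12. It was -0.03 ± 0.12 in young mice, or -0.22 without young obese 1 and 2, and for age in lean mice 0.02 ± 0.12 (0.99).

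Sdc4 (ENSMUSG00000017009, chromosome 2), a syndecan of focal adhesions, had its lowest, median and highest levels at 72.4, 221.2 and 366.5 CPM in aged obese and 94.0, 165.0 and 288.5 CPM in aged lean libraries. In young mice they were 155.2, 169.9 and 300.7 CPM in obese and 130.9, 165.3 and 232.0 CPM in lean libraries. The aged obese group was split, with 72.4 and 90.7 CPM in libraries 10 and 12 and 205.7 to 366.5 CPM in the other 4, and young obese 1 and 2 (300.7 and 288.5 CPM) stood above the other young obese libraries (155.2 to 173.5 CPM). The log2 difference was 0.35 ± 0.28 for obesity in aged mice (edgeR, adjusted p = 0.659), 0.24 ± 0.26 for obesity in young mice, 0.14 ± 0.28 for age in obese mice (0.832) and 0.02 ± 0.26 for age in lean mice (0.994). Without aged obese 10 and 12 it was 0.75 ± 0.24 for obesity in aged mice (adjusted p = 0.158) and 0.54 ± 0.24 for age in obese mice (0.113). Without young obese 1 and 2 it was -0.02 ± 0.27 for obesity in young mice and 0.40 ± 0.29 for age in obese mice (0.421).

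**Figure D3:**
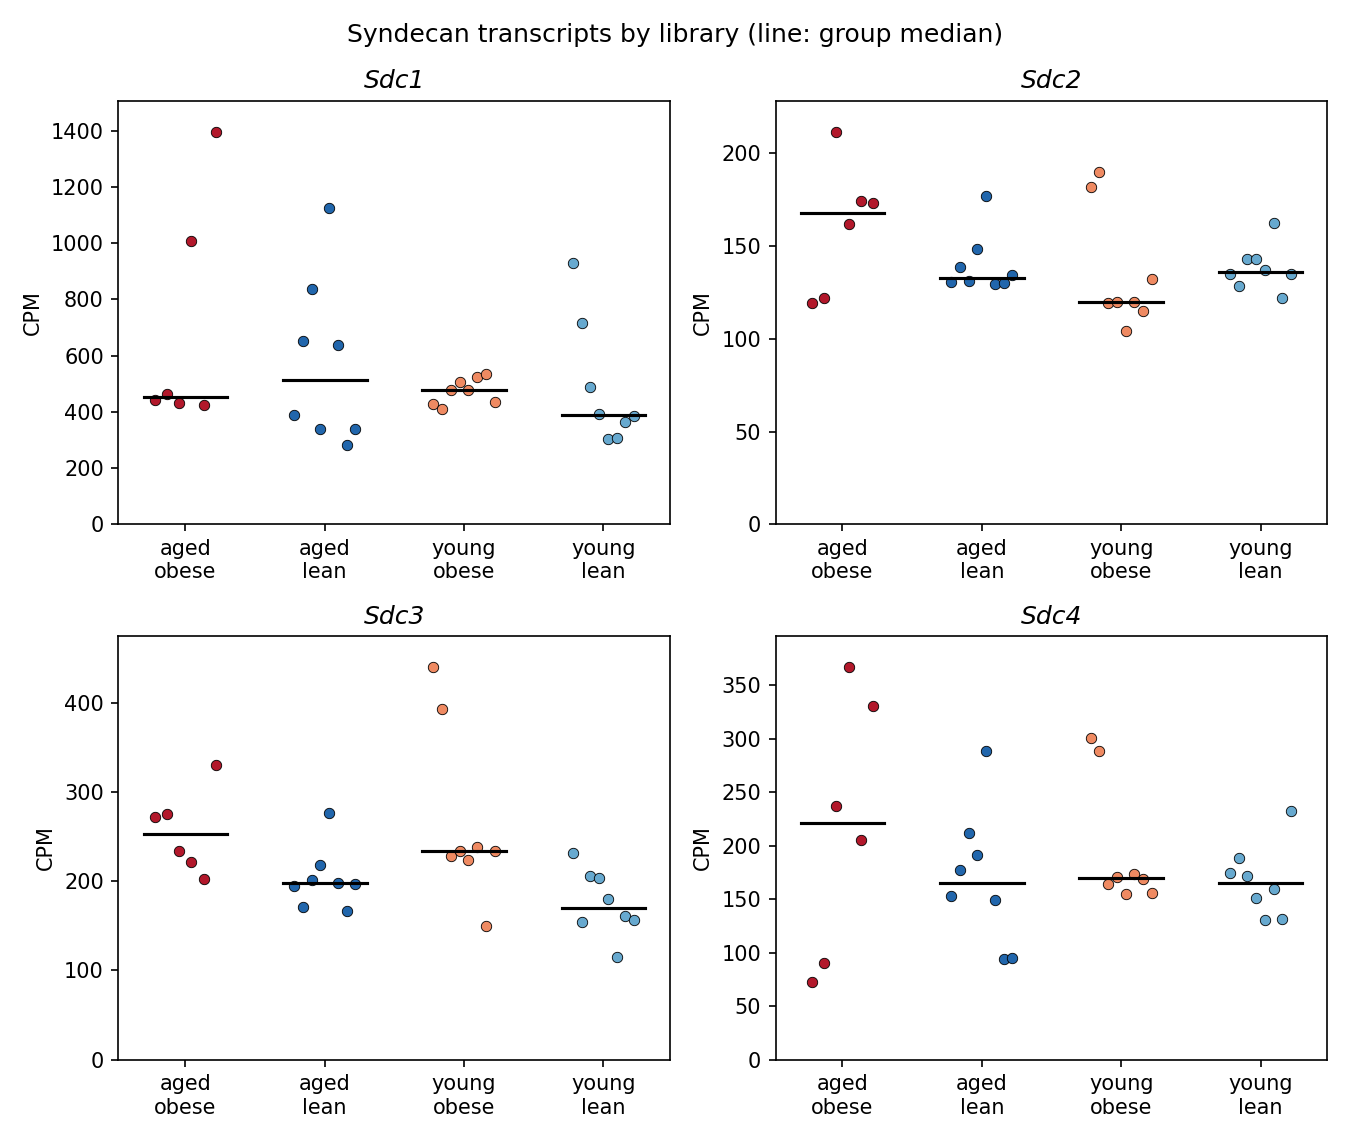
CPM of Sdc1, Sdc2, Sdc3 and Sdc4, 1 point per library, in aged obese, aged lean, young obese and young lean groups, with a line at each group's median. Young obese 1 and 2 hold the highest Sdc2, Sdc3 and Sdc4 of their group, and the groups of all 4 syndecans overlap.

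Obesity in young mice chose the set, so its members are not counted against the threshold there, which 8.83% of all tested genes passed. Obesity in aged mice gave 0 of 8 (0.222% of all genes passed), and 0 of 8 also by DESeq2 and by voom. There 1 of 8 members had an unadjusted p below 0.05, as had 1838 of the 14438 tested genes. Age in obese mice gave 1 of 8, Ptn, against 3.07% of all genes, with 1 by DESeq2 (Ptn, adjusted p = 0.00595) and 1 by voom (Sdc2). Age in lean mice gave 0 of 8, where 0 genes at all passed and 773 had an unadjusted p below 0.05. In that comparison 1 member had an unadjusted p below 0.05, and DESeq2 and voom called 0 members. The median log2 difference of the members was 0.12, 0.30, 0.14 and 0.10 for obesity in young mice, for obesity in aged ones, for age in obese and for age in lean mice, against -0.02, 0.01, 0.01 and -0.02 over all tested genes. In aged mice 7 of 8 members were higher in obese than in lean cells, all but Ptn, without passing the test (Lrp1 was at -0.05 after correction for GC content and gene length). Each comparison shares a group of libraries with 2 of the others, so the directions are not independent.

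**Figure D4:**
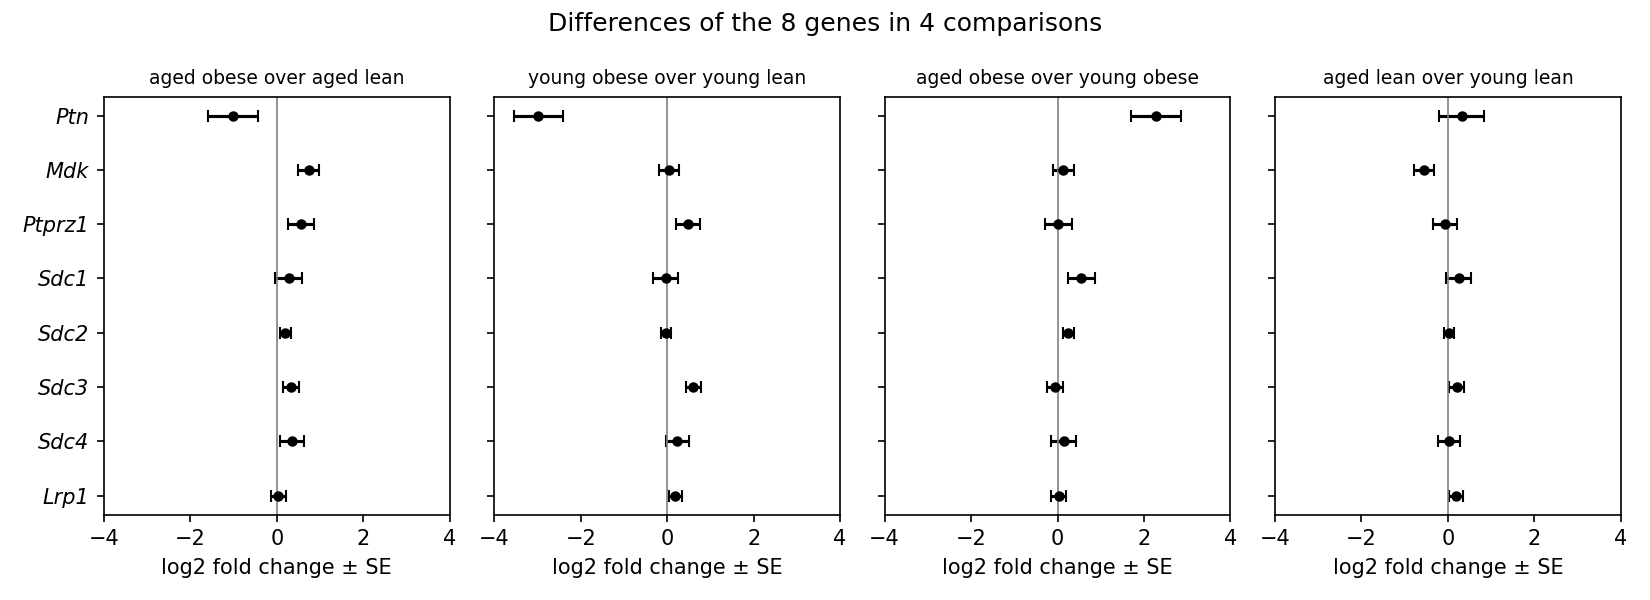
log2 fold change of each of the 8 members with its SE for obesity at either age and for age under either diet, with positive values higher in obese or in aged cells. Ptn has the largest changes, -2.98 for obesity in young mice and 2.28 for age in obese mice, and the other members lie between -0.56 and 0.73.

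Ptn was also among the most variable genes within groups. The SD of its log2 CPM about the group means was 1.18, larger than that of 98.0% of all tested genes and of 98.2% of the 1000 genes nearest to it in level, whose median was 0.333. By group it was 1.60 in aged obese, 1.48 in aged lean, 0.397 in young obese and 0.983 in young lean libraries. Ptprz1 (0.619), Sdc1 (0.588), Sdc4 (0.57) and Mdk (0.498) were above the median of all genes (0.33), while Sdc3 (0.345) and Lrp1 (0.317) were near it and Sdc2 (0.24) below it. Against the 1000 genes nearest to each in level, Sdc2 was ordinary, with a larger SD than 50.7% of them. By the same measure Lrp1 exceeded 67.6% and Sdc3 74.9%, and Ptprz1, Mdk, Sdc4 and Sdc1 exceeded 86.7% to 92.7%.

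Across the 30 libraries, each centred on its group's mean, Ptn correlated weakly with the other members. Its Pearson correlations with Mdk, Ptprz1, Sdc1, Sdc3, Sdc4 and Lrp1 lay between -0.0727 and 0.087, and that with Sdc2 was -0.326, and -0.445 without young obese 1 and 2 and aged obese 10 and 12. Mdk and Ptprz1, a ligand and its receptor, had r = 0.498, and 0.401 over the 26 libraries that remain without these 4. Ptprz1 and Sdc1 ran against each other, with r = -0.546 and -0.50 without these 4. Sdc2, Sdc4 and Lrp1 formed the tightest group in all 30 libraries, with r = 0.701 for Sdc2 and Sdc4, 0.677 for Sdc2 and Lrp1 and 0.65 for Sdc4 and Lrp1. These values rested largely on the same 4 libraries, without which they were 0.273, 0.324 and 0.269. Sdc1 and Sdc4 had r = 0.565 and 0.715 without the 4, and Sdc3 and Lrp1 had 0.529 and 0.582. The points share libraries and hence their scaling, so these correlations describe the libraries only.

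**Figure D5:**
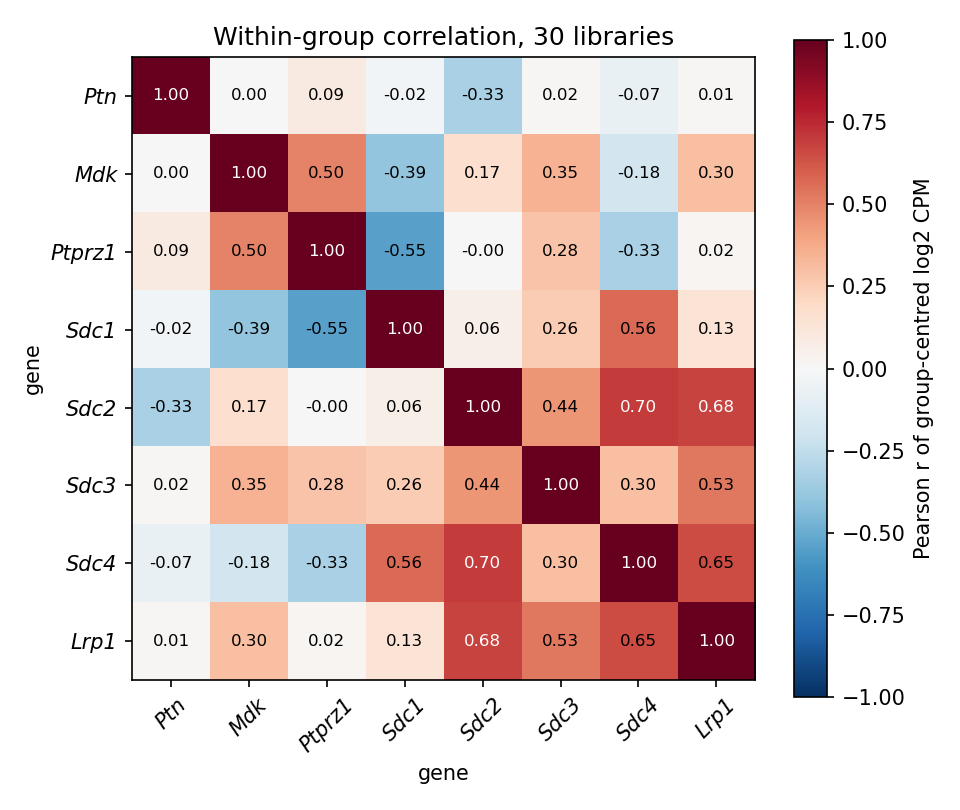
Pearson correlation between each pair of members over 30 libraries, computed on log2 CPM centred on each group's mean. Sdc2, Sdc4 and Lrp1 form the block of highest values (0.65 to 0.701), Ptprz1 and Sdc1 have the lowest (-0.546), and Ptn is near 0 with all members but Sdc2 (-0.326).

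Genes whose pattern was most like that of a member were sought, above a mean level of 4 CPM, by the same centred correlation over the 30 libraries. For Ptn they were Gsn (r = 0.754), which encodes the actin-severing gelsolin, Peli2 (0.731), Pear1 (0.689), the semaphorin co-receptor Nrp2 (0.669) and Tmem43 (0.668). For Mdk they were Lrrc15 (0.83), a membrane protein of activated fibroblasts, Adcy4 (0.763), Rflnb (0.762), Sorcs2 (0.736) and the parathyroid hormone receptor Pth1r (0.715). The ligands thus shared none of these genes. Ptprz1 was most like Parp8 (0.808), Jup (0.796) and Col8a1 (0.79), and Lrp1 like App (0.927), Fn1 (0.922) and Man2b2 (0.921). Sdc4 was most like Fgf18 (0.948), Tnfaip2 (0.915) and Gfpt2 (0.903), Sdc2 like Cda (0.924), Cpne8 (0.899) and Eid1 (0.891), Sdc3 like the follistatin-like Fstl3 (0.864), Cdc42bpa (0.837) and R3hdm1 (0.818), and Sdc1 like Slc35f6 (0.89) and Ino80c (0.862).

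Few other genes of the pathway passed the test. Of 18 other receptors and binding partners of the ligands 15 were tested, and 0 passed for obesity in aged mice or for age in lean mice. For age in obese mice 2 of 15 were higher in aged cells and 0 lower, against 1.87% of all tested genes higher. They were the integrin subunit Itgb3 with 37.0 ± 13.6 CPM in aged obese and 20.5 ± 3.18 CPM in young obese libraries (SD, n = 6 and 8, log2 0.85 ± 0.22, edgeR adjusted p = 0.0315) and the midkine and semaphorin co-receptor Nrp1 with 116.0 ± 21.9 and 72.7 ± 25.6 CPM (0.67 ± 0.19, adjusted p = 0.0467). Itgb3 no longer passed without aged obese 15 or 17 or without any of young obese 18 to 21, and Nrp1 no longer passed without any aged obese library but 16 or without any of young obese 18 to 23. For obesity in young mice 3 of 15 were higher in obese cells and 0 lower, against 8.83% of all tested genes in either direction. They were the endocytic receptor Lrp2 (9.13 ± 2.07 CPM in obese and 3.51 ± 1.89 CPM in lean libraries) and the integrin subunits Itgb1 and Itgav (log2 0.26 each). The lists were chosen with earlier results of these data known, so counts of list genes in every comparison are given as a description. Age in obese mice also shares the young obese libraries with the comparison that chose the set. Values of p for list genes are therefore no independent support there.

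Of 13 tested genes that mature LRP1, adapt it or bind it, 2 were higher in aged than in young obese cells, against 1.87% of all tested genes. Plau, the protease urokinase, had 298.2 ± 60.0 CPM in aged obese and 208.3 ± 29.9 CPM in young obese libraries (log2 0.52 ± 0.12, edgeR adjusted p = 0.0223), and Pdgfrb, a growth factor receptor that signals through LRP1 and marks mural cells, had 684.1 ± 271.3 and 465.4 ± 56.3 CPM (0.56 ± 0.15, adjusted p = 0.0419). Plau no longer passed without aged obese 17 (adjusted p = 0.0547), and Pdgfrb no longer passed without aged obese 14, 15 or 17 or any young obese library (log2 0.32 without aged obese 15). Summed mural markers, Pdgfrb among them, ranged from 3727.8 to 7909.9 CPM in aged obese and 4723.2 to 6217.6 CPM in young obese libraries, mostly from Acta2. Of the 7 mural markers 2 passed as higher, Pdgfrb among them, and 6 had positive log2 differences, with a median of 0.56 over the 7, and their part in the result was not tested. Neither Plau and Pdgfrb nor Itgb3 and Nrp1 passed when only the 2 obese groups were fitted. None of them passed with young obese libraries that lay close together summed (edgeR, adjusted p = 0.519 to 0.556). In aged mice 0 of 13 passed, 12 of 13 were positive and the median was 0.29.

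The enzymes that build the sugar chains were counted likewise. Of 15 tested genes of chondroitin and dermatan sulfate synthesis 1 was higher in aged obese than in aged lean cells, Chsy1, which extends the chondroitin chain, with 38.3 ± 7.68 and 27.1 ± 2.76 CPM (SD, n = 6 and 8, log2 0.50 ± 0.11, edgeR adjusted p = 0.0376), where 0.222% of all tested genes passed. This call ended without any of aged obese 10, 12, 15 or 17 and without any aged lean library but 16. Chsy3 was the 1 of 15 higher for obesity in young mice (7.54 ± 3.77 CPM in obese and 4.02 ± 1.25 CPM in lean libraries), and 0 passed for age. For obesity in young mice 8.83% of all tested genes passed. Of 22 tested genes of heparan sulfate synthesis and editing 1 was higher for obesity in young mice, the sulfotransferase Hs6st2 (113.3 ± 14.2 CPM in obese and 73.7 ± 18.4 CPM in lean libraries), and 0 passed in the other 3 comparisons. In each of the 4 comparisons 0 passed of 8 genes of signalling below PTPRZ1, 4 other ligands and partners of it, 5 glypicans and 10 adaptors and shedding enzymes of syndecans.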

How the data were processed

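Per the labels' protocols, RNA came from sorted cells expanded in culture, frozen by individual mouse. The deposited table holds raw counts of reads per Ensembl gene, which the authors did not normalize. The tools named are STAR, DESeq2 1.12.4 and HTSeq 0.7.0, per the submitters' processing notes. The build, annotation and strand setting are not given in the sources used here. The 5 lines that name no gene were left out (reads in no gene 3.94% to 8.75%, ambiguous reads 2.69% to 3.41% per library). Groups and mouse numbers come from the sample titles, and no batch is labelled.

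The counts were filtered with filterByExpr, scaled with TMM and fitted to all 30 libraries in edgeR 4.0.16 (R 4.3.3), with quasi-likelihood tests and Benjamini-Hochberg adjustment over 14438 genes, a threshold of 0.05 and log2 CPM at a prior count of 2. This procedure was tested on simulated data. A symbol was found for 36639 of 38561 identifiers. Exon lengths come from GENCODE M21 and promoters from RefSeq on GRCm38.p6, matched by symbol for 6 of 8 members. Members, lists and tests were chosen with earlier results of these data known. Genes named were the members, up to 4 called genes of each list, and the 3 genes (5 for the ligands) most like each member. A few genes named by this rule are not reported here. Alternatives were RLE scaling, no filter, an offset for GC content and length, 2-group fits, left-out or summed libraries, a replicate block, voom with library weights (limma 3.58.1) and DESeq2 1.42.0. Mouse numbers that recur between groups name different mice and were not used as pairs. p-values measure the spread between these mice. All pairs of libraries of a group differed by more than sampling noise, with a chi-square statistic per gene of 6.79 at least, and the median SD of log2 CPM was 0.383 in aged obese and 0.264 to 0.298 in the other groups, so a shared estimate of spread may be too small for aged obese libraries.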

Additional observations from a re-analysis of the deposited data

Results flagged for a closer look

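Of 32 combinations of a member and a group, 2 held a library far from the others, where chance gives about 1 in 20. Both were aged lean 16. Its Sdc2 level was 177.2 CPM, against 129.7 to 148.4 CPM in the other 7 aged lean libraries, and its Sdc3 level was 276.0 CPM, against 166.5 to 218.3 CPM. Without it the log2 difference of Sdc2 for age in lean mice was -0.04 in place of 0.02, and the number of all genes called for obesity in aged mice was 435 in place of 32, with 0 of 8 members called.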

How the results depend on the processing

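Of the members, Ptn decided the only call outside the comparison that chose the set. Its log2 difference for age in obese mice was 1.72 to 2.51 with single libraries left out. It was 1.70 without aged obese 10 and 12, 2.33 with close young obese libraries summed and 1.12 with voom. The call was lost in these last 3 fits. It was also lost with any of aged obese 12 or 15 or young obese 2 or 18 to 23 left out singly. Members called for age in obese mice were 0 to 1 with single libraries left out, 2 without young obese 1 and 2 and 0 with summed libraries, against 1. The sign turned for small differences, in age in obese mice for Mdk (-0.14 without aged obese 10 and 12, -0.06 with voom), Ptprz1 (-0.35 and -0.17 in the same fits) and Sdc3 (0.23 without young obese 1 and 2, 0.05 with voom), in age in lean mice for Sdc1 (-0.01, voom), Sdc2 (-0.04 without aged lean 16, -0.02 with voom) and Sdc4 (-0.13 and -0.25), and in obesity in aged mice for Lrp1 (-0.05, offset for GC content and length). In obesity in young mice it turned for Mdk (-0.13) and Sdc4 (-0.02) without young obese 1 and 2, Lrp1 (-0.06, offset), Sdc1 (0.19 with voom, 0.02 without young obese 1 and 2) and Sdc2 (0.02 with the offset, 0.04 with summed libraries, 0.16 and 0.17 over recurring mouse numbers), and with summed libraries Mdk and Sdc1 were at -0.0044 and 0.00048. With single libraries left out it also turned for Lrp1 (-0.06 to 0.16 for obesity in aged mice, -0.07 to 0.15 for age in obese mice), Mdk (-0.01 to 0.23), Ptprz1 (-0.12 to 0.14), Sdc3 (-0.15 to 0.08) and Sdc4 (-0.08 to 0.33) for age in obese mice, Ptprz1 (-0.18 to 0.05), Sdc2 (-0.04 to 0.06) and Sdc4 (-0.13 to 0.13) for age in lean mice Sdc1 for obesity in aged mice (-0.06 to 0.48), and Mdk (-0.06 to 0.18), Sdc1 (-0.11 to 0.18) and Sdc2 (-0.12 to 0.03) for obesity in young mice.

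All genes called numbered 1275 for obesity in young mice, with 371 without a filter, 587 with the offset, 143 without young obese 1 and 2, 0 with summed libraries, 4266 with voom and 201 to 2197 with single libraries left out. For obesity in aged mice the 32 were 18 without a filter, 62 with the offset, 0 in a 2-group fit, 9 without aged obese 10 and 12, 435 without aged lean 16, 114 with voom, 187 with DESeq2 and 9 to 435 with single libraries left out. For age in obese mice the 443 were 253 without a filter, 181 in a 2-group fit, 2679 without aged obese 10 and 12, 0 with summed libraries, 2870 with voom, 855 with DESeq2 and 43 to 1027 with single libraries left out. For age in lean mice the 0 were 6 with voom, 8 with DESeq2 and 0 to 1 with single libraries left out. A replicate block over recurring mouse numbers (2 in young and 4 in aged mice) called 0 genes in either obesity comparison, as did the same libraries without it (a fit chosen after seeing the data). Ptn was then at -1.55 with the block and -1.70 without it in young mice, and fewer libraries entered. Same-numbered libraries correlated at 0.0823 and 0.215 in young and -0.517 to 0.39 in aged mice. No paired analysis was possible for the age comparisons because no mouse number recurs between those groups. The causes of the other changes were not tested.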

Other observations

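Ptn split the aged lean group, with 36.7, 48.4, 28.7 and 45.8 CPM in libraries 11, 12, 13 and 15, against 2.91, 7.45, 9.61 and 8.87 CPM in libraries 16, 17, 19 and 20. No label given for these mice separates them other than the mouse number. Mdk in the same libraries was 22, 14.2, 13.3 and 27.9 CPM, against 23.8, 9.1, 28.5 and 25.6 CPM, and did not show this split. Gsn, the gene most like Ptn, kept r = 0.756 without young obese 1 and 2 and 0.726 without aged obese 10 and 12.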
